A study of Mus musculus with 24 samples.

Results

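Transcripts of 10 genes of major histocompatibility complex (MHC) class I antigen presentation were followed in the aortas of 24 mice. They are the class I heavy chain genes H2-K1, H2-D1, H2-Q4 and H2-Q7, the light chain gene B2m, the peptide transporter gene Tap1, the loading factor gene Tapbp, the immunoproteasome genes Psmb8 and Psmb9, and the transcriptional activator gene Nlrc5. They are 10 of the 41128 genes in the table, picked by symbol. The set was put together with the calls between knockout and wildtype control mice in view, H2-Q4 and H2-Q7 among them, so that contrast is given for all 10 as a description, and its calls are named only because they entered the choice.

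Calcineurin is a protein phosphatase that responds to calcium, and Ppp3cb is the gene of its catalytic beta subunit. The study asked what this subunit does in vessels exposed to angiotensin II (AngII), a peptide hormone that raises blood pressure. Wildtype (WT) mice and Ppp3cb knockouts (KO; stock B6,129S6-Ppp3cbtm1Jmk/J) were female or male and 5 months old, and the aorta of each was sequenced as 1 library of total RNA. AngII mice carried osmotic pumps that released 500 ng per kg per min for 4 weeks; controls are labelled only as control, and whether they carried a pump is not given in the sources used here. This makes 8 groups of 3 mice: WT control, WT AngII, KO control and KO AngII, each in females and in males. The stock name gives a mixed background of B6 and 129S6. Whether the WT mice were littermates, and the H2 haplotype of any mouse, are not given in the sources used here, and their part in the results was not tested.

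A class I molecule is a heavy chain paired with beta-2 microglobulin (B2m) that shows a short peptide from inside the cell to CD8 T cells and natural killer cells. Proteasomes cut the peptides, and the transporter of Tap1 and Tap2 carries them into the endoplasmic reticulum, where tapasin (Tapbp) helps load them. Interferon gamma, in part through Irf1, raises most genes of the pathway, including the catalytic subunits Psmb8 and Psmb9 that replace standard ones in the immunoproteasome. Nlrc5 assembles on class I promoters with factors that bind CRE-like and CCAAT elements, and these promoters also hold NF-kappaB and interferon-stimulated response elements. In vessels, endothelium and resident or entering leukocytes are known for high class I expression.

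Libraries held 1523328 to 6352365 counts, of which 36.3% to 74.6% fell on protein-coding genes. Ppp3cb itself stood at 41.9 ± 10.8 CPM (read counts scaled to library size) in WT (28.1 to 69.4) and 21.3 ± 6.11 CPM in KO (11.2 to 30.3; SD, n = 12 each), and the genotype ranges overlapped. Smooth muscle markers summed to 6275 to 19572 CPM over the 24 aortas, with 6275, 10298 and 8321 CPM in the 3 KO control females and 16059 to 19007 CPM in the KO control males. Olfactory and vomeronasal receptor genes, which are silent in most tissues, stood at 1001 to 1992 CPM, scaled to protein-coding counts, in the 3 KO control females. KO AngII female 1 held 1073 and the other libraries 110 to 646. The part of the gene that the knockout allele lacks is not given in the sources used here. Values without the 3 KO control females are given beside many of the results that use them, as medians or for some genes only. Every difference that needs this group then drops out. KO against WT in control mice then rests on males alone. AngII against control then lacks KO females, and females against males lacks the KO controls.

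The heavy chain promoters are shown because the 4 heavy chain genes, which differed unequally between the genotypes, all carry the same regulatory block. The block joins a match to the NF-kappaB consensus and a match to the core of the interferon-stimulated response element (ISRE, searched as GAANNGAAA on either strand; here it reads on the minus strand of the gene). Capitals mark these 2 matches. Sequences are RefSeq's, on build GRCm38.p6, 5′ to 3′ on the strand of the gene, and positions within the block are counted from 1 at its 5′ end.
H2-K1 (chr17:34000429-34000458, minus strand): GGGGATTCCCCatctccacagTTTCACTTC
H2-D1 (chr17:35262923-35262952, plus strand): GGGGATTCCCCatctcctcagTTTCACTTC
H2-Q4 (chr17:35379443-35379472, plus strand): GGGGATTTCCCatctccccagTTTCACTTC
H2-Q7 (chr17:35439022-35439050, plus strand): GGGGATTCCCatctccccagTTTCACTTC
Against H2-K1, the H2-D1 block carries A18T, and the H2-Q4 block carries C8T and A18C. The H2-Q7 block is 29 bases long against 30 in the other 3, and its ISRE match is the same run of letters.

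The 250 bases before the start of H2-Q4 and H2-Q7 are shown with those of H2-K1 and with 249 bases before B2m, whose protein pairs with every heavy chain. Capitals mark matches to the ISRE core, the NF-kappaB consensus, the CCAAT box (CCAAT) and the CRE half-site (TGACG), each on either strand.
H2-Q4 (chr17:35379367-35379616, plus strand): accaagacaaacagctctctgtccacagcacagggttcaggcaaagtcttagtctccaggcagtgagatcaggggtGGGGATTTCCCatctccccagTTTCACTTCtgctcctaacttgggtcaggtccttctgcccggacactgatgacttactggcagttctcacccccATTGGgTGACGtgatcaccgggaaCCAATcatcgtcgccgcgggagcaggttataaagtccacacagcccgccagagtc
H2-Q7 (chr17:35438905-35439154, plus strand): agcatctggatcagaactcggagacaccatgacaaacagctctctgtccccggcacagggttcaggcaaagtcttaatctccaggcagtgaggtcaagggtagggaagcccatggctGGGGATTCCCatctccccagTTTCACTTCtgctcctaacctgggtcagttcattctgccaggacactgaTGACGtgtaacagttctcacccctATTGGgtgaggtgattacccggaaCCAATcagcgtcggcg
H2-K1 (chr17:34000348-34000597, minus strand): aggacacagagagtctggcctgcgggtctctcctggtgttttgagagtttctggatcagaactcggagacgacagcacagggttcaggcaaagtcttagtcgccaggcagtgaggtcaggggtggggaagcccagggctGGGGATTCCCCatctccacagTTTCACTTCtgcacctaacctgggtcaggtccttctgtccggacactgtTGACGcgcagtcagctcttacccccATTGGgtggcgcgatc
B2m (chr2:122147437-122147685, plus strand): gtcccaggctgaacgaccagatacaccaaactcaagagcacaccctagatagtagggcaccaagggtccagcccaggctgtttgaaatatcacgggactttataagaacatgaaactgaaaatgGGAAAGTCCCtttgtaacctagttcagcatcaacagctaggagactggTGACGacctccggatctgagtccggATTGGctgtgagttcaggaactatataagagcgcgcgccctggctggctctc
A RefSeq promoter window of up to 250 bases was matched for 9 of the 10 genes, all but Nlrc5. RefSeq's start can lie inside the gene as annotated by GENCODE. All 250 bases of the H2-D1 and Psmb8 windows and 146 bases of the Tapbp window fall in a GENCODE exon. The H2-D1 block above does so too, as do all 225 bases checked of the Tap1 window. The Psmb9 window, on the other strand, was not checked by itself but holds the same 225 bases. The ISRE core lay in 4 of the 9 windows, those of the heavy chains, and in 6.35% of 27018 RefSeq promoters read over 250 bases. The NF-kappaB consensus lay in 5 of 9 (3.74% of promoters), TGACG in 7 of 9 (17.8%) and CCAAT in 8 of 9 (34.5%). The interferon-gamma-activated site, searched as TTCNNNGAA, lay in 1 of 9, that of Psmb8 (7.14%). Because the Tap1 and Psmb9 windows overlap, their CCAAT match is 1 site counted for both genes, and so is their TGACG match. Matches of the ISRE core and of NF-kappaB did not share bases in the heavy chain blocks. These matches describe letters and not sites in use.

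Per length of exon, B2m was the most abundant of the 10 at 1032 ± 558 CPM per kb (SD over 24 libraries). H2-D1 (61.8), H2-K1 (36.3) and H2-Q4 (18.5 CPM per kb) followed, and Tapbp (13.5) lay above H2-Q7 (8.08). Tap1 (2.9), Nlrc5 (1.92), Psmb9 (1.44) and Psmb8 (1.08 CPM per kb) were scarce, with 0 to 71 counts per library for Psmb8 and 1 to 60 for Psmb9. Every gene but B2m and Nlrc5 lies on chromosome 17, in or near the MHC.

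**Figure D1:**
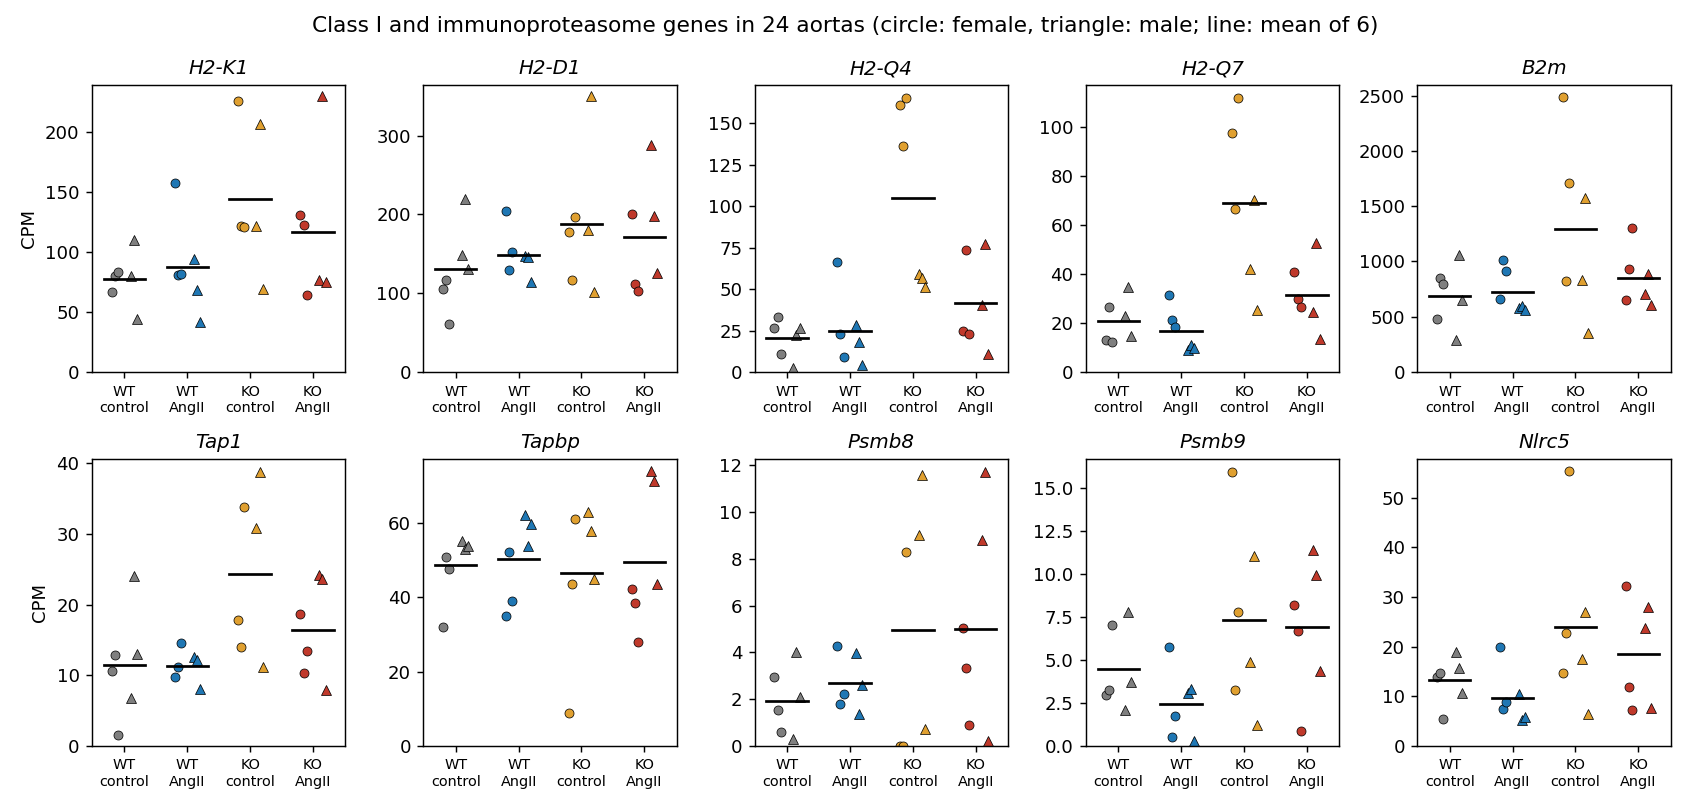
Level of each of the 10 genes (CPM) in the 24 aortas, by genotype and treatment; circles are females, triangles are males and lines are means of 6 libraries. The 3 KO control females stand highest for H2-Q4 (136 to 165 CPM) and Psmb8 is at 0 in 2 of them.

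H2-Q4 (ENSMUSG00000035929, chromosome 17, 35379617 to 35385290, plus strand, mm10) encodes a non-classical heavy chain of the Qa region. WT control females held 26.7, 33.3 and 10.6 CPM and WT control males 2.66, 22.2 and 26.5 CPM. KO control females held 161, 136 and 165 CPM and KO control males 58.9, 57 and 51.3 CPM. All 6 KO controls lay above all 6 WT controls, and the KO females lay well above the KO males. Under AngII, WT females held 66.5, 22.9 and 8.86 CPM and WT males 28.6, 18.1 and 4.03 CPM. KO AngII females held 24.8, 73.5 and 23 CPM and KO AngII males 40.7, 77.1 and 10.7 CPM. The AngII groups overlapped, with 1 high library in WT females and 1 in each sex of KO.

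H2-Q7 (ENSMUSG00000060550, chromosome 17, 35439155 to 35443773, plus strand) encodes a Qa-2 antigen, a non-classical class I chain. In WT controls it stood at 13.2, 26.5 and 12.2 CPM in females and 22.8, 34.9 and 14.7 CPM in males. In KO controls it stood at 97.4, 66.6 and 112 CPM in females and 42.2, 70 and 25.5 CPM in males. All of the KO controls but male 3 lay above every WT control. In AngII females it stood at 31.3, 21.1 and 18.5 CPM in WT and 40.9, 29.9 and 26.5 CPM in KO, which overlap. In AngII males it stood at 8.9, 11.2 and 9.78 CPM in WT and 24.6, 52.7 and 13.3 CPM in KO.

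H2-K1 (chromosome 17, 33996017 to 34000347, minus strand) and H2-D1 (chromosome 17, 35262730 to 35267499, plus strand) encode the classical heavy chains that present peptide to CD8 T cells. H2-K1 ran from 44.2 to 110 CPM in WT controls (median 80.1), 42 to 158 in WT AngII (81.6), 69.3 to 226 in KO controls (122) and 64.4 to 230 in KO AngII (99.8). H2-D1 ran from 60.5 to 220 CPM (median 124), 114 to 205 (147), 102 to 350 (179) and 103 to 288 (162) in the same order of groups. For both genes the KO groups reached higher than the WT groups while their lowest libraries lay among the WT values.

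The 4 heavy chain genes summed to 249 ± 75.4 CPM in WT controls, 278 ± 96.8 in WT AngII, 506 ± 171 in KO controls and 360 ± 130 in KO AngII (SD, n = 6). In KO controls the females held 662, 441 and 596 CPM and the males 404, 685 and 248 CPM. The share of H2-Q4 in it was 8.5 ± 4.87% in WT controls, 7.81 ± 4.49% in WT AngII, 21.1 ± 8.42% in KO controls and 11.1 ± 6.1% in KO AngII. H2-Q7 made up 8.1 ± 1.57%, 5.94 ± 1.83%, 13.3 ± 3.52% and 8.76 ± 2.54%. H2-D1 made up 51.2 ± 9.25% in WT controls and 37.3 ± 10.1% in KO controls. Within KO controls H2-Q4 made up 27.6 ± 3.25% in females and 14.5 ± 6.16% in males, H2-Q7 16.2 ± 2.25% and 10.3 ± 0.125%, and H2-D1 28.8 ± 3.73% and 45.7 ± 5.05% (n = 3 each). Of the 50-base words in transcripts of H2-Q7, 26.4% occur in another gene as well, mostly H2-Q10 (14%), H2-Q5 (8.74%) and H2-Q6 (6.31%), and the figures were 21.8% for H2-Q4, 12.8% for H2-D1 and 9.63% for H2-K1. Counts of single heavy chain genes and their sum are uncertain for that reason, since how the authors treated reads with several matches is not given in the sources used here.

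**Figure D2:**
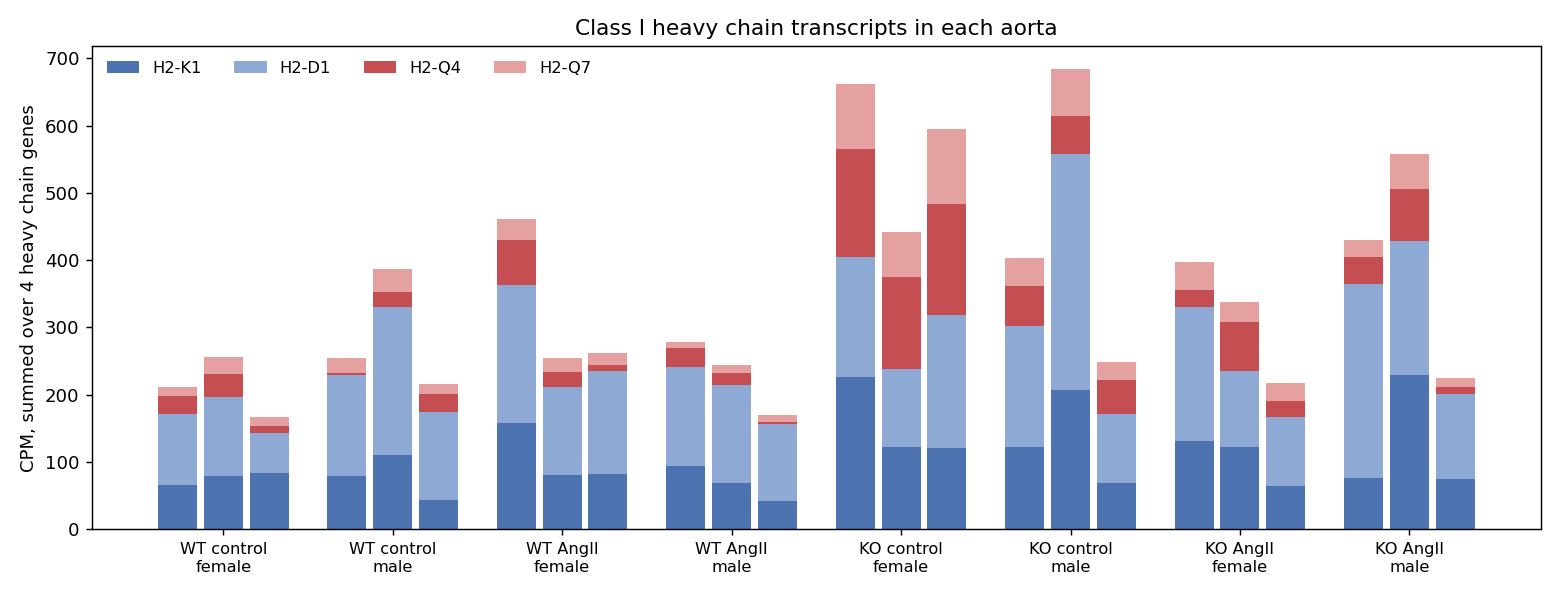
Summed level of the 4 heavy chain genes (CPM, stacked bars from 0) in each of the 24 libraries, by group. The H2-Q4 segment is longest in the 3 KO control females, at 136 to 165 CPM.

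B2m (ENSMUSG00000060802, chromosome 2, 122147686 to 122153083), the light chain shared by all class I molecules, held 294 to 1060 CPM in WT controls (median 723) and 353 to 2486 in KO controls (median 1200). In AngII mice it held 560 to 1014 CPM in WT (median 631) and 604 to 1302 in KO (median 797). The KO controls spread most widely, with female 1 at 2486 CPM and male 3 at 353 CPM.

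Tap1 (chromosome 17, 34187553 to 34197225, plus strand) encodes a subunit of the peptide transporter, and Psmb9 (chromosome 17, 34181987 to 34187764, minus strand) runs the other way, with annotated starts that overlap. Tap1 held 1.52 to 24 CPM in WT controls (median 11.7), 8.05 to 14.5 in WT AngII (11.6), 11.2 to 38.8 in KO controls (24.3) and 7.86 to 24.2 in KO AngII (16.1). Tapbp (chromosome 17, 33915899 to 33929292), which holds empty class I molecules at the transporter, had medians of 51.9, 52.9, 51.5 and 42.9 CPM in the same order. Tapbp was the most even of the 10 over the 4 group means, which ran from 46.6 to 50.3 CPM.

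Psmb8 (chromosome 17, 34197721 to 34201454) and Psmb9 encode inducible catalytic subunits of the immunoproteasome. Psmb8 ran from 0.296 to 4.01 CPM in WT controls, 1.37 to 4.25 in WT AngII, 0 to 11.6 in KO controls and 0.218 to 11.7 in KO AngII. KO control females 1 and 2 had 0 counts, which allow up to 1.91 and 1.08 CPM at 3 counts (counting error only). Psmb9 ran from 2.07 to 7.78 CPM in WT controls, 0.288 to 5.75 in WT AngII, 1.22 to 15.9 in KO controls and 0.874 to 11.4 in KO AngII. Both KO groups held libraries above every WT library and libraries among the lowest of all. Psmb10, the third inducible subunit, is at 0 in every library and was treated as not measured.

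Nlrc5 (ENSMUSG00000074151, chromosome 8, 94434356 to 94527272), the activator of class I genes, held 5.47 to 18.9 CPM in WT controls (median 14.2), 5.21 to 20 in WT AngII (8.11), 6.32 to 55.4 in KO controls (20.1) and 7.29 to 32.2 in KO AngII (17.8). Its highest value was in KO control female 3. The mean of KO controls was the highest of the 4 groups for 8 of the 10 genes, all but Tapbp and Psmb8. Between neighbours in the order of the 4 means, the gap was above the larger SD in 2 of 30 pairs, KO controls against KO AngII for H2-Q4 and for H2-Q7. All other neighbours lay within their spread. The KO control values of H2-Q4 and H2-Q7 entered the choice of the genes, so these 2 gaps are a description.

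In control mice, the contrast that chose H2-Q4 and H2-Q7, 9 of the 10 genes were higher in KO than in WT, with a median log2 difference of 0.87 against -0.01 over all genes tested. H2-Q4 (2.19 ± 0.47 log2, SE) and H2-Q7 (1.66 ± 0.30) had the largest, with Tap1 at 1.12 ± 0.40. Psmb8 stood at 1.20 ± 0.89, and at -1.98 without KO control female 3, the only female of its group with counts. H2-K1 (0.90 ± 0.30), B2m (0.85 ± 0.30), Nlrc5 (0.81 ± 0.42), Psmb9 (0.66 ± 0.64) and H2-D1 (0.57 ± 0.25) followed, and Tapbp differed by -0.08 ± 0.26. Without KO control male 2, H2-K1 stood at 0.60, B2m at 0.47, Psmb9 at 0.16 and H2-D1 at 0.22, and without KO control female 3, Nlrc5 stood at 0.40 and Tapbp at -0.37. By edgeR's quasi-likelihood test with Benjamini-Hochberg adjustment under 0.05, 2 of the 10 were called, H2-Q4 and H2-Q7, where 0.221% of the 16316 genes were; this count fixed the choice and nothing is read from it. Nor is anything read from the other settings, where H2-Q7 was called in 32 of 34 and H2-Q4 in 25 of 34. Many of these leave out 1 AngII library, which is not among the mice compared. H2-Q4 was not called with at least 50 counts in 3 libraries. Nor was it called without WT control male 1 (1.93), any 1 of the WT control females, KO control female 3 or KO control male 1. Without the 3 KO control females the contrast is that of males alone. All 10 were then higher in KO, with a median of 0.59, and 0 of 10 were called.

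Under AngII the same genotype contrast rests on the other 12 libraries, and 9 of the 10 genes were again higher in KO, with a median of 0.64 log2 against 0.01 over all genes tested. None of the 10 passed the test, where 58 genes (0.355%) did. At an unadjusted p under 0.05 there were 3 of the 10, H2-Q7, Nlrc5 and Psmb9, and 1264 of the 16316 genes (7.75%). H2-Q7 stood at 31.3 ± 13.8 CPM in KO and 16.8 ± 8.64 CPM in WT (SD, n = 6), a difference of 1.03 ± 0.30 log2 (edgeR, adjusted p = 0.199), and 5 of 6 KO libraries lay above the WT median. DESeq2 called it (1.09, adjusted p = 0.0488), as did edgeR with no filter on low counts (1.00, adjusted p = 0.0402); over all its alternatives the adjusted p ran from 0.0402 to 0.682. Without KO AngII male 2 the difference was 0.68 (edgeR, adjusted p = 0.682).

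Psmb9 differed by 1.45 ± 0.66 log2 (6.89 ± 3.83 against 2.44 ± 2.05 CPM; edgeR, adjusted p = 0.591) and Nlrc5 by 0.99 ± 0.42 (18.5 ± 10.9 against 9.61 ± 5.46 CPM; adjusted p = 0.541). H2-Q4 differed by 0.82 ± 0.46, Psmb8 by 0.77 ± 0.85, Tap1 by 0.51 ± 0.40, H2-K1 by 0.44 ± 0.30, B2m by 0.25 ± 0.30, H2-D1 by 0.18 ± 0.25 and Tapbp by -0.06 ± 0.25 log2. The KO and WT libraries overlapped for every one of the 10. For these 7 genes the adjusted p was 0.764 or above. Leaving out 1 library moved several of these: H2-K1, at 0.06 without KO AngII male 2, H2-D1, at -0.01 without KO AngII female 1, Nlrc5, at 0.56 without KO AngII female 1, H2-Q4, at 1.32 without WT AngII female 1 and 0.42 without KO AngII female 2, Psmb8, at 0.44 without KO AngII male 2, and B2m, at 0.09 without KO AngII female 3.

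**Figure D3:**
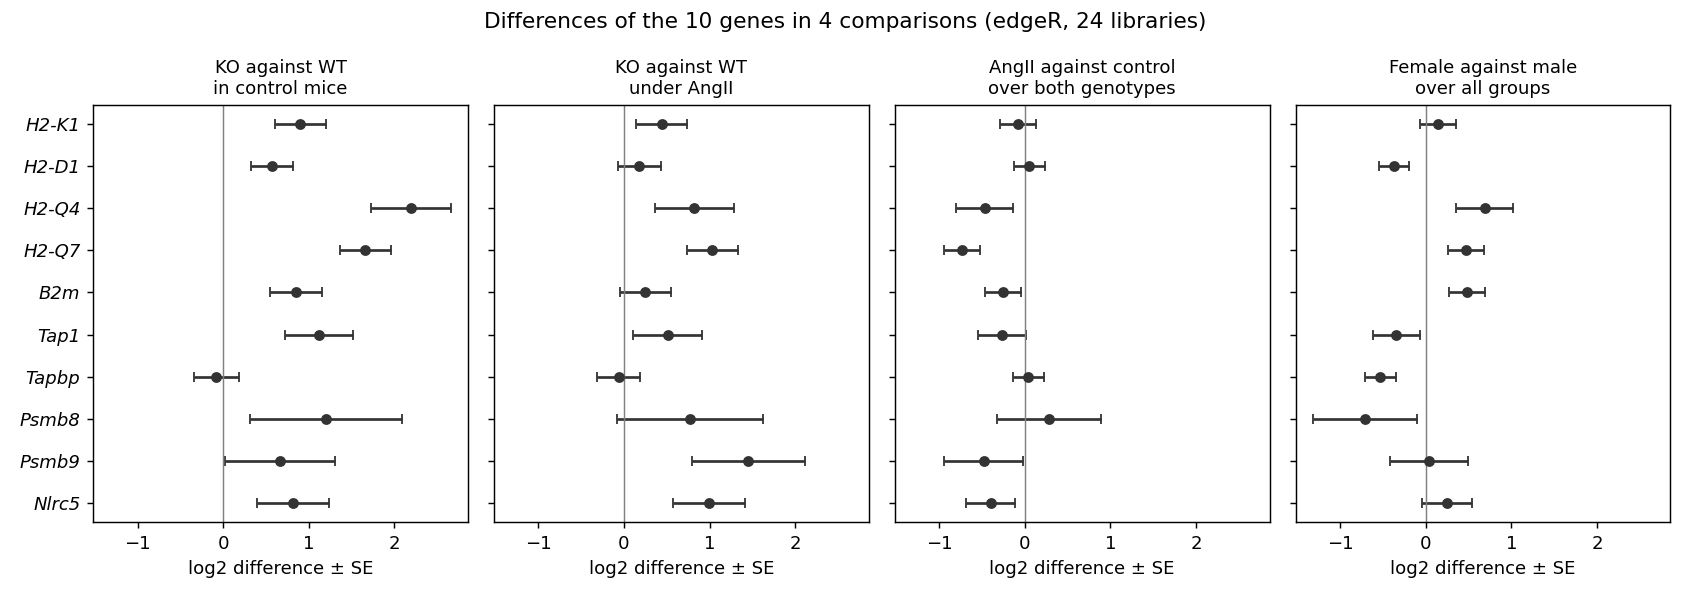
Log2 difference ± SE of the 10 genes in 4 comparisons over 24 libraries (edgeR). In the contrast of control mice, which chose H2-Q4 and H2-Q7, and under AngII, 9 of 10 points lie right of 0; in AngII against control 3 of 10 do, and in females against males 6 of 10.

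Split by sex, the genotype difference under AngII had a median of 1.13 log2 over the 10 genes in males, all 10 of which were higher in KO, and 0.21 in females, where 7 of 10 were. None of the 10 was called in males, where 4 genes (0.0245%) were, or in females, where 0 genes (0%) were called by edgeR; 785 genes in females had an unadjusted p under 0.05, and DESeq2 called 29. In males H2-Q7 differed by 1.61 ± 0.44 (edgeR, adjusted p = 0.373) and was called with no filter on low counts (1.56, adjusted p = 0.0279), Psmb9 by 1.93 ± 0.95, Nlrc5 by 1.47 ± 0.61, Psmb8 by 1.38 ± 1.21 and H2-Q4 by 1.35 ± 0.66. In females the same 5 genes differed by 0.46 ± 0.42, 0.97 ± 0.93, 0.51 ± 0.59, 0.16 ± 1.21 and 0.29 ± 0.65. The female difference minus the male difference was below 0 for all 10 by edgeR over all libraries (median -0.94). It turned for H2-Q4 (-1.06) with limma-voom and sample quality weights (0.45), for Psmb9 (-0.96) without WT AngII female 1 (0.25) and for B2m (-0.18) without KO AngII female 1 (0.03), and H2-Q4 stood at -0.01 without WT AngII female 1. None passed the test of that difference, in which 0 genes (0%) were called by edgeR, 386 had an unadjusted p under 0.05 and DESeq2 called 0. KO AngII male 2 held the highest value of its group of 3 for H2-K1, H2-Q4, H2-Q7, B2m, Psmb8 and Nlrc5. Without it the male median was 0.59, with 9 of 10 higher, and the median of the sex difference was -0.37.

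AngII mice were compared with controls over both genotypes. The control side of this contrast holds the KO control libraries that entered the choice, and they spread more widely than the WT controls, so the values of the 10 genes are descriptions here too. Of the 10 genes 3 were higher under AngII (Psmb8, H2-D1 and Tapbp), the median was -0.27 log2 against 0.00 over all genes, and 0 of 10 were called by edgeR where 107 genes (0.656%) were. H2-Q7 had the largest difference: it stood at 24.1 ± 13.3 CPM under AngII and 44.8 ± 33.9 CPM in controls (SD, n = 12), -0.73 ± 0.21 log2 (edgeR, adjusted p = 0.118). DESeq2 called it (-0.78, adjusted p = 0.0274). So did edgeR with no filter on low counts (-0.72, adjusted p = 0.0209) and without KO AngII male 2 (-0.90, adjusted p = 0.0275). Over all its alternatives the H2-Q7 difference ran from -0.90 to -0.49. Psmb9 differed by -0.48 ± 0.46, H2-Q4 by -0.47 ± 0.33, Nlrc5 by -0.40 ± 0.29, Tap1 by -0.27 ± 0.28, B2m by -0.26 ± 0.21 and H2-K1 by -0.08 ± 0.21. Without the 3 KO control females the contrast lacks the treatment difference in KO females. The median was then -0.04, with 5 of 10 higher, H2-Q4 differed by 0.01 and H2-K1 by 0.06.

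Within WT, AngII and control mice differed by a median of 0.03 log2 over the 10 genes, with 7 of 10 higher under AngII and H2-Q7 at -0.42 ± 0.30. Within KO the median was -0.31, with 2 of 10 higher, and the largest differences were those of H2-Q4 (-1.16 ± 0.45) and H2-Q7 (-1.05 ± 0.29). Both contrasts use the control libraries that chose these genes and are given as descriptions. The KO difference minus the WT difference had a median of -0.44, with H2-Q4 at -1.37 ± 0.65 and H2-Q7 at -0.63 ± 0.42. In a fit of the males alone, chosen after seeing the data, the median within KO was -0.04, with H2-Q4 at -0.35 and H2-Q7 at -0.57. The KO difference minus the WT difference then had a median of 0.15, with H2-Q4 at -0.30 and H2-Q7 at 0.72, so its direction turned without the females.

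Over all groups, 6 of the 10 genes were higher in females than in males, with a median of 0.09 log2 against 0.05 over all genes, and none was called where 860 genes (5.27%) were. Tapbp was nearest to the threshold, at 39.9 ± 13.4 CPM in females and 57.7 ± 9.2 CPM in males (SD, n = 12), -0.53 ± 0.18 log2 (edgeR, adjusted p = 0.0787; 0.0176 to 0.122 over the alternatives). Only 1 of 12 females lay above the male median. It was called by DESeq2 (-0.49), limma-voom with sample quality weights (-0.54), with no filter on low counts (-0.55) and without KO control female 2 (-0.58) or 3 (-0.68). H2-Q4 (0.69 ± 0.33; edgeR, adjusted p = 0.222) and B2m (0.48 ± 0.21; edgeR, adjusted p = 0.184) were called only with no filter on low counts, with adjusted p of 0.00541 and 0.0315. H2-Q7 differed by 0.47 ± 0.21, H2-D1 by -0.37 ± 0.18 and Psmb8 by -0.71 ± 0.61, which became -2.31 without KO control female 3. Without the 3 KO control females, and so without the sex difference in KO controls, the median over the 10 was -0.06.

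A list of 53 further genes of the pathway, of which 45 were tested, was read beside these 10. It was compiled with earlier results of these data known. Under AngII, 30 of the 45 were higher in KO (median 0.16 log2) and 0 were called by edgeR (58 of all genes were), and in AngII against control 20 of 45 were higher (median -0.03) with 0 called. Among 4 genes of peptide supply and trimming all were higher in KO under AngII: Tap2, the partner of Tap1, differed by 0.21 ± 0.32, the proteasome activator subunits Psme1 and Psme2 by 0.05 ± 0.26 and 0.31 ± 1.09, and the trimming peptidase Erap1 by 0.16 ± 0.26. The loading chaperones of the endoplasmic reticulum, Calr (-0.03 ± 0.18), Canx (-0.03 ± 0.17) and Pdia3 (-0.08 ± 0.22), were all slightly lower. Of the standard proteasome subunits that the inducible ones replace, Psmb5 differed by -0.12 ± 0.65, Psmb6 by 0.03 ± 0.20 and Psmb7 by -0.14 ± 0.27.

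Among 9 other heavy chain genes tested, 6 were higher in KO under AngII with a median of 0.43 log2, including H2-Q6 (0.58 ± 0.49), H2-T23, the gene of Qa-1 (0.62 ± 0.36), and H2-T22 (0.52 ± 0.44), with H2-T24 at 0.31 ± 0.44. Transcription and signalling factors of the pathway had a median of 0.11 over 19 tested, and their 4 most abundant, Jak1, Creb1, Jak2 and Irf2, differed by 0.07 ± 0.17, -0.06 ± 0.20, 0.11 ± 0.19 and 0.12 ± 0.26. The 7 class II genes, whose products present peptides to CD4 T cells, were all higher in KO under AngII, with a median of 0.82 over both sexes, 1.81 in males and -0.34 in females, and none was called. Cd74, the invariant chain of class II, differed by 0.64 ± 0.47, H2-Ab1 by 0.83 ± 0.56, H2-Aa by 0.82 ± 0.61 and H2-Eb1 by 1.02 ± 0.72. In control mice, the contrast used for the choice, their median difference was 2.58 and Cd74 and H2-Ab1 were called, where 0.221% of all genes were. Without the 3 KO control females, which leaves the contrast of males alone, the median was 2.74, with all 7 higher in KO. Of these 7, 0 were called by edgeR, as were 0% of all genes (Cd74 2.94 ± 0.74, H2-Ab1 2.69 ± 0.84).

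Between sexes, 2 of the 45 list genes were called (5.27% of all genes were). H2-Q10, a class I chain known from liver, was higher in females, at 12.4 ± 7.53 against 6.32 ± 5.79 CPM (1.49 ± 0.40 log2; edgeR, adjusted p = 0.0245), and shares sequence with H2-Q7. Psmb5, the standard subunit that Psmb8 replaces, was lower in females, at 2.57 ± 2.08 against 6.34 ± 3.19 CPM (-1.74 ± 0.51; edgeR, adjusted p = 0.037). Without the 3 KO control females, and so without the sex difference in KO controls, neither was called by edgeR, at 1.60 (adjusted p = 0.103) and -0.99 (adjusted p = 0.361). H2-Q10 was called in 28 of 32 other settings and Psmb5 in 17 of 31.

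Leukocyte transcripts stood with the class I genes in several libraries, and in whole aorta more cells of a type and more RNA per cell cannot be told apart. The 9 measured of 10 macrophage markers summed to 65.6 to 102 CPM in WT controls, 113 to 165 in WT AngII, 80.9 to 521 in KO controls and 92.1 to 249 in KO AngII. Ptprc, the gene of the pan-leukocyte protein CD45, stood at 4.73 to 11.5, 4.83 to 21.8, 5.35 to 54.8 and 0.437 to 31.5 CPM in the same order. The 8 measured of 10 T and natural killer cell markers summed to 1.96 to 5.77, 3 to 12.9, 1.22 to 24.2 and 0 to 20.9 CPM, with Cd3e and Cd3g not measured. KO control male 2 held 521 CPM of macrophage markers, 54.8 CPM of Ptprc and 685 CPM of the 4 heavy chains, the most of any library for each; KO control male 3 held 80.9, 5.35 and 248 CPM. Among KO AngII males, male 3 held 105, 0.437 and 224 CPM, male 2 held 237, 25.1 and 557 CPM and male 1 held 249, 31.5 and 429 CPM. Of the single heavy chains in these 2 males, H2-D1 was higher in male 1 (288 against 198 CPM), and H2-K1, H2-Q4 and H2-Q7 were higher in male 2. Endothelial markers, without Cdh5, summed to 984 ± 534 CPM in WT controls, 649 ± 235 in WT AngII, 869 ± 270 in KO controls and 705 ± 180 in KO AngII. Smooth muscle markers were at 8298 ± 2012 CPM in KO control females, which hold the highest H2-Q4 values, against 14328 ± 802 CPM in WT control females (SD, n = 3). The part of these cell type markers in the class I differences was not tested.

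Levels of the 10 genes ran together across libraries. Of their 45 pairs, 40 had a positive Pearson r of log2 CPM over 24 libraries, with a median of 0.54 (-0.40 to 0.81), and 42 were positive on residuals from the 8 group means, with a median of 0.48. In the 21 libraries other than KO control females 44 of 45 pairs were positive, with a median of 0.50. The 3 pairs below 0 on residuals were Tapbp with B2m, H2-K1 and Psmb9. The mean of the genes' z-scores was highest in KO control male 2 (1.35), KO control female 3 (1.29) and KO AngII male 2 (1.05), and lowest in WT AngII male 3 (-1.01). Values in one library share its depth and its cells, and the heavy chain genes may share reads, so these figures and the mean score are descriptions.

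Among the genes outside the set most like that mean score were H2-Ab1 (r = 0.84, rho = 0.85, r on residuals 0.81), Cd74 (0.84), the guanylate-binding protein gene Gbp3 (0.83) and the chemokine gene Cxcl9 (0.82), followed by Tgtp2 (0.81), Gvin1 (0.81), Igtp (0.78), Tgtp1 (0.77) and Irgm2 (0.77). These 9 genes had r of 0.72 to 0.83 without the 3 KO control females. Over all 16316 genes the median r was -0.04 and the 95th percentile 0.45. These genes were ranked on the same libraries, and the near-identical copies Tgtp1 and Tgtp2 may share reads. All of these but H2-Ab1 and Cd74 are known first as interferon-induced genes. In the order WT control, WT AngII, KO control and KO AngII, Gbp3 stood at 10 ± 7.39, 8.85 ± 5.86, 33.3 ± 19.2 and 18.1 ± 9.8 CPM and Cxcl9 at 0.774 ± 1.26, 1.63 ± 1.73, 9.38 ± 7.61 and 5.68 ± 7.61 CPM (SD, n = 6). None of these genes passed the test between KO and WT under AngII, where Tgtp1 differed by 1.62 ± 0.57 log2 (edgeR, adjusted p = 0.374). Of the marker lists, all 5 smooth muscle markers measured, of 7 listed, ran against the score (r from -0.58 to -0.33). All 9 macrophage markers ran with it (0.20 to 0.65, median 0.42), as did Ptprc (0.61) and 6 of 7 endothelial markers (-0.25 to 0.49, median 0.28). So did the lymph node stroma markers Ccl21a (0.47) and Ccl19 (0.41) and all 5 dendritic markers tested (median 0.24). All 3 B cell markers tested (median 0.32) and both T and natural killer cell markers tested (median 0.29) were positive too. Of fibroblast markers 3 of 6 were positive (median -0.03), and of adipocyte markers 3 of 5 (median 0.21).

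**Figure D4:**
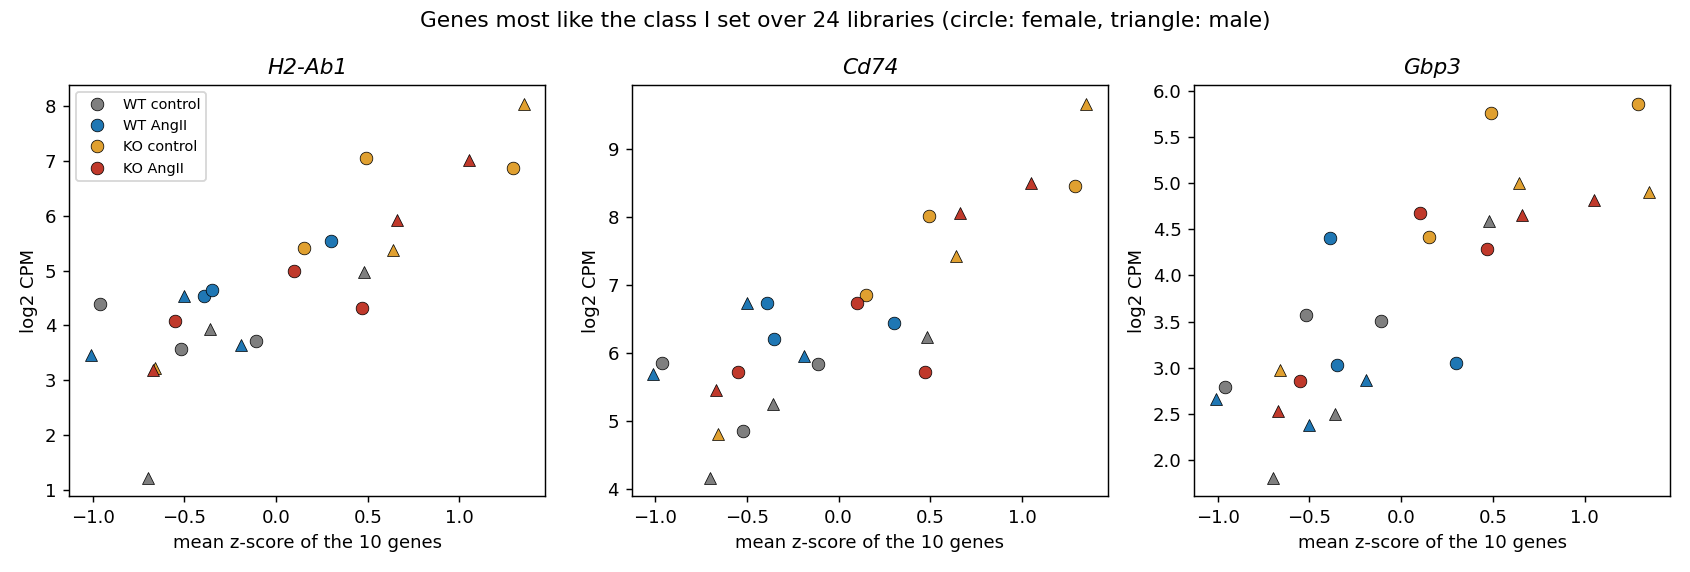
Level (log2 CPM) of H2-Ab1, Cd74 and Gbp3 against the mean z-score of the 10 genes in 24 libraries (circles female, triangles male, colours by genotype and treatment). All 3 genes run with the score, with Pearson r of 0.84, 0.84 and 0.83, and the KO control libraries run from scores of -0.66 to 1.35.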

How the data were processed

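Per the labels' protocols, total RNA of each aorta was extracted with TRIzol, treated with DNase, cleared of ribosomal RNA and sequenced on Illumina instruments. The authors deposited 1 table of raw read counts per gene for all 24 libraries; per the submitters' processing notes, the tools were featureCounts 1.4.6, Bowtie2 2.2.5, TopHat2 2.0.14 and cutadapt 1.8.1, named without an order, with build mm10, and strand settings and treatment of multiply matching reads are not given in the sources used here. The counts were tested with edgeR 4.0.16 in R 4.3.3: TMM scaling, filterByExpr (10 counts, 15 in total), 16316 of 41128 genes kept, all 10 members among them, quasi-likelihood F-tests on coefficients for the 8 groups, and Benjamini-Hochberg adjustment over all genes tested at 0.05. CPM are TMM-scaled, and log2 CPM use a prior count of 2. DESeq2 1.42.0 and limma 3.58.1 (voom with sample quality weights) were alternatives, beside other scalings and filters, leaving out libraries and a replicate block. The statistics were tested on simulated data. The members and all lists were chosen with earlier results of these data known. Named genes were the 10 members, list genes called in a tested comparison or otherwise up to 4 per role with the highest mean log2 CPM, and the 10 genes with the highest r to the members' mean z-score, of which 1 is not reported here. Same-numbered libraries of different groups did not deviate together (r from -0.024 to 0.132 over 12 pairs, 1 of them over 0.1), so numbers were not used to pair mice. No 2 replicates agreed within sampling noise (chi-square per degree of freedom 6.663 to 97.34). Intervals and floors cover counting error only. RefSeq windows and motif matches are on GRCm38.p6.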

Additional observations from a re-analysis of the deposited data

Results flagged for a closer look

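Each of the 10 genes was examined in its 4 groups of 6 libraries, 40 series in all, for a single library far from the rest by Dixon's criterion. Chance marks about 1 in 20 such series, and 3 of 40 were marked. Tapbp stood at 31.9 CPM in WT control female 1, where the nearest other WT control held 47.7 CPM. Tapbp stood at 8.92 CPM in KO control female 1, where the nearest held 43.5 CPM. Nlrc5 stood at 20 CPM in WT AngII female 1, where the nearest held 10.4 CPM.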

How the results depend on the processing

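Counts of called genes moved with the method. Between KO and WT under AngII the 58 became 166 with DESeq2, 200 with limma-voom and sample quality weights (called limma-voom below) and 182 with no filter on low counts, and 35 to 72 when single libraries were left out. In females 0 became 29, 15 and 50 (0 to 1 with single libraries left out). In males 4 became 43, 14 and 81, and 0 with at least 50 counts in 3 libraries, with only the 12 AngII libraries or without the 3 KO control females (0 to 11 with single libraries left out). The sex difference went from 0 to 5 with no filter and stayed at 0 with single libraries left out. AngII against control went from 107 to 264 with DESeq2, 196 with limma-voom, 276 with no filter and 38 without the 3 KO control females (59 without WT AngII female 2 to 264 without KO control female 2). Females against males went from 860 to 1756 with DESeq2 and 166 without the 3 KO control females (605 without WT control female 3 to 1562 without KO control female 2). With the replicate block the counts were 52, 0, 0, 0, 82 and 821 in the order above. Several log2 differences turned sign, most of them small but not those of H2-Q4 and Psmb9 in the sex difference, and the cause was not tested. For AngII against control, H2-D1 went to -0.001997 with DESeq2, -0.01447 with at least 50 counts and -0.001905 with relative log expression factors (-0.03625 to 0.2018 with single libraries left out), H2-K1 to 0.06126 and H2-Q4 to 0.009291 without the 3 KO control females (H2-K1 -0.2646 to 0.04579), and Tapbp to -0.009422 with at least 50 counts (-0.06632 to 0.1705). Between KO and WT under AngII, Tapbp went to 0.01278 with at least 50 counts (-0.1377 to 0.02213) and H2-D1 ran from -0.009138 to 0.2761. In females H2-K1 went to 0.03925 with DESeq2, 0.05047 with at least 50 counts, 0.2179 with limma-voom, 0.01268 with only the 12 AngII libraries, 0.03911 with relative log expression factors and 0.001289 without the 3 KO control females (-0.1964 to 0.3447), and Tap1 to -0.03622 with limma-voom. With single libraries left out, females ran from -0.1515 to 0.371 for B2m, -0.4751 to 1.312 for H2-Q4, -0.3468 to 1.041 for Nlrc5 and -0.4067 to 0.5776 for Psmb8, and males from -0.04794 to 0.2857 for Tapbp. In the sex difference H2-Q4 went to 0.4514 with limma-voom, B2m ran from -0.4773 to 0.03139 and Psmb9 from -1.457 to 0.25. In females against males Psmb9 went to -0.3659 with limma-voom and -0.1694 without the 3 KO control females (-0.3067 to 0.225). Psmb8 and Psmb9 have no value with at least 50 counts in 3 libraries, and their low counts limit what can be seen for them.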

Other observations

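Genes outside the naming rule were picked after their values were seen. Irf1, a transcription factor that interferon gamma induces and that acts on class I promoters, stood at 27.6 ± 6.11 CPM in KO and 15.8 ± 5.11 CPM in WT under AngII (0.84 ± 0.27 log2; edgeR, adjusted p = 0.28). In control mice it stood at 29.5 ± 11.1 and 16.3 ± 4.7 CPM (SD, n = 6 each). H2-Q5 is a heavy chain gene of the Qa region that GENCODE annotates as a polymorphic pseudogene, and it shares sequence with H2-Q7. It stood at 7.53 ± 7.2 CPM in KO and 1.94 ± 0.958 CPM in WT under AngII (2.02 ± 0.64 log2, edgeR, adjusted p = 0.265). Neither passed the test.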
